A study of Mus musculus with 10 samples.

Results

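Homeobox genes that lie outside the Hox clusters were followed through the reprogramming of mouse fibroblasts toward pluripotency. A gene was included when its symbol began with 1 of 16 stems (those of the families listed next) followed by a digit and when it had a protein-coding transcript. This rule used names only and gave 77 of the 45706 genes in the deposited tables. By homeobox class they were 19 TALE genes (Meis, Pbx, Pknox, Tgif, Irx), 8 LIM genes (Lhx), 6 SINE genes (such as Six4), 27 NK-like genes (Msx, Dlx, Nkx, Barx, Emx), 9 paired genes (Pax) and 8 paired-like genes (Pitx, Otx, Alx). The prefix brings in Pax1 and Pax9, which are known to carry a paired domain and no homeodomain, and the rule leaves out other homeobox families, which are taken up at the end.

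RNA was read from 10 libraries in 5 groups of 2. All mice and cells carry the strain label C57BL/6 x 129. Embryonic fibroblasts (MEF) and cells at day 3 (D3), day 6 (D6) and day 9 (D9) had the genotype OKSM Col1a1/M2rtTA ROSA26, so the uninduced fibroblasts held the same Oct4, Klf4, Sox2 and Myc cassette and transactivator as the induced cells. MEF were in MEF medium without doxycycline. The D3, D6 and D9 cells were in ESC medium with 1 µg/ml doxycycline, which switches the cassette on, and 50 µg/ml ascorbic acid. D3 was the whole culture, and D6 and D9 were sorted for the surface epitope SSEA1, so that D6 against D3 changes time and sort together. The pluripotent reference (ESC) was the V6.5 embryonic stem cell line, a single line, grown with LIF on irradiated feeder cells, for which fibroblasts are commonly used. The design text calls the replicates biological but does not say which came from separate cultures, and p-values measure only the spread between these libraries.

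Homeobox proteins bind DNA through a homeodomain and set the identity of cells along the body axes and in organs. TALE proteins have a homeodomain with an extra loop of amino acids. Among them, Meis and Pknox proteins pair with Pbx proteins on DNA, also as partners of Hox proteins, Tgif proteins are repressors known for limiting TGF-beta signalling through Smads, and Irx proteins pattern the nervous system, heart and limbs. LIM homeodomain proteins work with the Ldb cofactors, SINE proteins with the Eya coactivators, and Pax, Pitx, Otx and Alx proteins mark particular embryonic territories. Fibroblasts are known to keep part of the positional code of the tissue they came from.

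Libraries held 29585876 to 38275024 estimated reads, of which the homeobox genes took 16259 to 28942, or 0.0521% to 0.0764%. Levels are given in CPM, estimated reads scaled to a common library size with TMM. A gene was called higher or lower when the quasi-likelihood test of edgeR gave an adjusted p-value under 0.05 over 20165 genes and the change was at least 2-fold, and the words rose and fell are kept for such calls. Pou5f1, the gene of the cassette factor Oct4, checked the induction: it averaged 2.97 ± 0.551 CPM (SD, n = 2) in MEF, 233 ± 13.6 (SD, n = 2) at D3 and 1153 ± 41.3 (SD, n = 2) in ESC. Xist averaged 0.767 CPM in MEF, 1010 to 1304 CPM at D3 to D9 and 10.2 CPM in ESC, while the Y-linked gene Ddx3y averaged 88.5 CPM in MEF, 0.0713 to 0.164 CPM at D3 to D9 and 26.5 CPM in ESC. The uninduced and the induced libraries therefore differed in sex-linked RNA as well as in treatment, and these cannot be told apart in a comparison with MEF. The ESC and the D9 libraries also differed in sex-linked RNA, which cannot be told apart from their other differences in ESC against D9. In bulk RNA, fewer cells of a type and less RNA per cell also cannot be told apart.

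Of the 77 genes, 59 passed the filter on low counts, 18 did not, and 3 of those 18 (Pax4, Tgif2lx1, Tgif2lx2) had no read in any library. The 18 untested genes reached at most 0.306 CPM as a group mean. A mean of 5 CPM or more in at least 1 group was reached by 29 genes, of which 26 are described one by one here. Of the 29, 26 were called in at least 1 comparison, and Pbx2, Pknox1 and Tgif1 in none. The number at 5 CPM or more was 22 in MEF, 20 at D3, 19 at D6, 17 at D9 and 18 in ESC. The number without a read in either library also went down, from 14 genes in MEF to 13 at D3, 12 at D6, 8 at D9 and 5 in ESC.

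**Figure D1:**
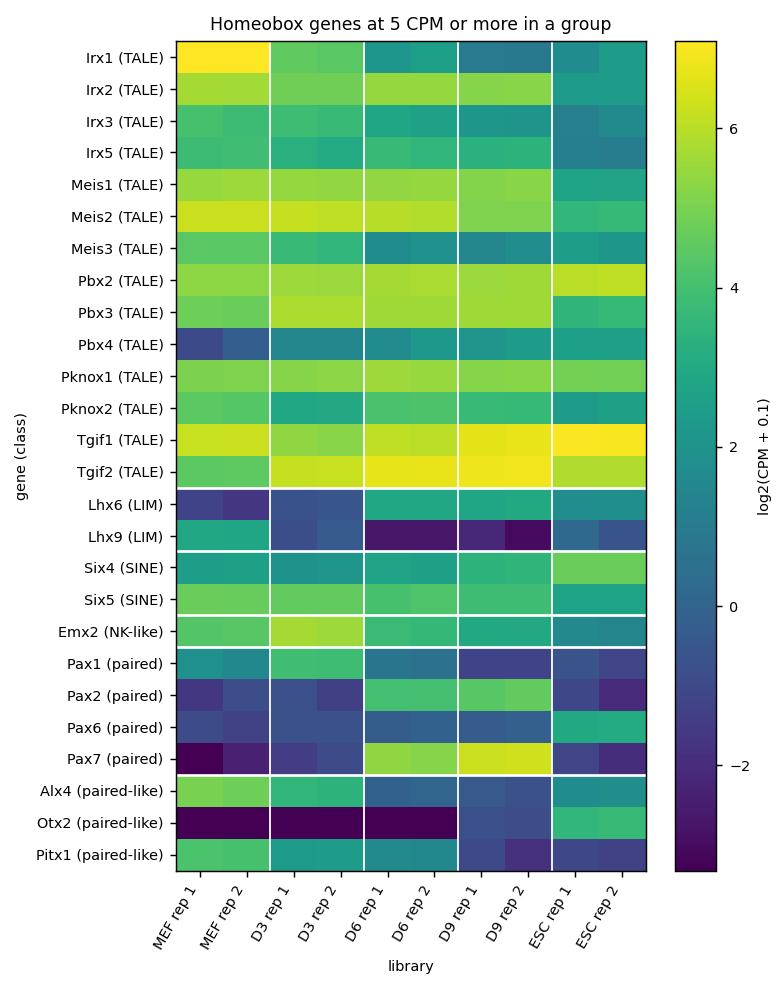
Levels of 26 of the 29 homeobox genes at 5 CPM or more in a group, 1 row per gene ordered by class and 1 column per library, with colour showing log2(CPM + 0.1). Most TALE rows stay bright through D9, whereas Pax7 and Pax2 are bright only at D6 and D9 and Otx2 only in ESC.

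Per unit of length, TALE genes made up most of the homeobox RNA at every stage. Their share of the summed TPM of the 77 genes was 87.0% and 87.2% in MEF, 81.9% and 83.3% at D3, 90.9% and 91.1% at D6, 89.5% and 88.8% at D9, and 86.1% and 85.8% in ESC. The summed level of all 77 averaged 277 TPM in MEF, 225 at D3, 230 at D6, 205 at D9 and 170 in ESC. By TPM, the most abundant gene changed on the way. Meis2 led in MEF at 67.9 TPM, at D3 at 53.6 TPM and at D6 at 48.4 TPM, and Tgif1 led at D9 at 45.6 TPM and in ESC at 63.6 TPM. In CPM, Meis2 averaged 77.2 in MEF, below Irx1 at 136, so the order of these genes depends on the unit. The TPM of Meis2 also rests on how its reads were assigned to transcripts of different lengths.

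At D3 against MEF, 10 of the 59 tested homeobox genes were higher and 8 lower, 30.5% in all, beside 29.1% of all tested genes (14.6% higher, 14.5% lower), a share near the background. At D6 against D3, 13 were higher and 16 lower, which is 49.2% beside 19.5% of all genes (9.26% higher, 10.2% lower). At D9 against D6, 10 were higher and 8 lower, 30.5% beside 7.87% (5.18% higher, 2.68% lower), and the number higher was 2 without D6 replicate 1, 6 without D6 replicate 2, 5 without D9 replicate 1 and 3 without D9 replicate 2. ESC against D9 gave 19 higher and 17 lower, 61.0% beside 32.9% (18.6% higher, 14.3% lower). Between the end points, ESC against MEF gave 22 higher and 24 lower, 78.0% beside 46.1% (25.5% higher, 20.6% lower), and D9 against MEF gave 19 higher and 21 lower, 67.8% beside 43.9% (24.1% higher, 19.8% lower). A gene that passed the filter through its one high group had to differ, so these shares describe the tested genes and support no claim about all 77. The median log2 fold change of the 59 was -0.57 for ESC against MEF (-0.47 with genes at 0 in a group set to their bound), beside 0.10 for all genes, and 0.37 (0.36) for ESC against D9, beside 0.00.

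**Figure D2:**
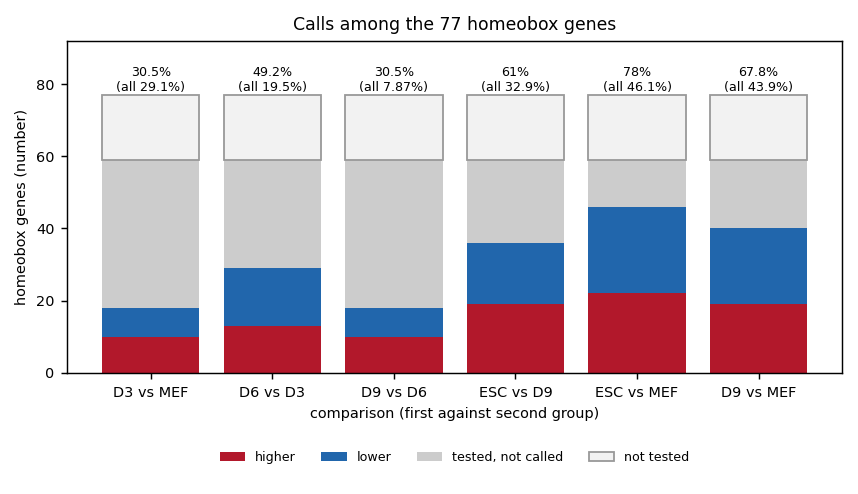
Number of the 77 homeobox genes called higher, called lower, tested and not called, or not tested in each comparison (stacked bars, first against second group). The percentages above each bar give the share of the 59 tested homeobox genes that was called and, in brackets, the share of all 20165 tested genes, which is nearest to the homeobox share at D3 against MEF (29.1% and 30.5%).

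By stage of highest level, 15 of the 29 genes peaked in MEF, among them Alx4, Irx1, Irx2, Irx3, Irx5, Lhx9, Meis1, Meis2, Meis3, Pitx1, Pknox2 and Six5. D3 held the highest mean of 3 (Emx2, Pax1, Pbx3), D6 of 1 (Pknox1), D9 of 4 (Lhx6, Pax2, Pax7, Tgif2) and ESC of 6 (Otx2, Pax6, Pbx2, Pbx4, Six4, Tgif1). Of the 13217 genes at 5 CPM or more, 30.4% peaked in MEF, 17.3% at D3, 12.5% at D6, 13.9% at D9 and 26.0% in ESC. A peak stage is the highest of the group means and carries no test.

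Among the TALE genes, Meis1 stayed near its fibroblast level through D9, and both Meis1 and Meis2 were low in ESC. Meis1 (ENSMUSG00000020160.16, chromosome 11, 18879817 to 19018985, GRCm38), a Pbx partner known from blood and limb development, read 44.4 and 47.3 CPM in MEF, 43.3 and 42.2 at D3, 42.2 and 43.7 at D6, 35.8 and 37.4 at D9, and 6.49 and 6.68 in ESC. The 8 fibroblast and induced libraries lay within a narrow range, and the ESC libraries lay far below all of them. Its log2 fold change was -0.33 for D9 against MEF, short of the 2-fold minimum, and -2.48 (SE 0.06, adjusted p = 2e-13) for ESC against D9. Of the Meis1 reads, an estimated 36.0% to 52.8% per library were on Meis1-006, a transcript not labelled protein-coding. Meis2 (chromosome 2, 115863064 to 116065839) began to decline earlier, with 76.7 and 77.8 CPM in MEF, 72.7 and 69.5 at D3, 63.4 and 59.8 at D6, 34.1 and 34.1 at D9, and 11.9 and 12.6 in ESC. Its change was -1.18 for D9 against MEF (-0.89 with library-size scaling, under the minimum) and -1.47 for ESC against D9. Meis3 stood apart from both: it fell from D3 to D6 (-1.78, SE 0.14, adjusted p = 4.6e-08), from 12.8 and 11.4 CPM to 3.29 and 3.73, and read 5.66 and 4.46 CPM in ESC. In libraries with enough reads, an estimated 21.8% to 71.3% of Meis3 reads were on the protein-coding transcript Meis3-001. In ESC, Meis3-004, labelled retained intron, took 24.8% and 22.1%.

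The Pbx genes, which encode the shared partners of Meis and Hox proteins, took different courses. Pbx3 (chromosome 2, 34171457 to 34373142) went up first, from 27.9 and 26.5 CPM in MEF to 56.1 and 56.6 at D3, stayed at 48.3 to 48.7 in the 4 sorted libraries, and was 11.1 and 12.6 in ESC. Its early rise of 1.05 lay at the threshold (0.93 by DESeq2), and its fall from D9 to ESC was -2.03 (SE 0.06, adjusted p = 7.4e-13). Pbx4 rose from 0.406 and 0.762 CPM in MEF to 2.69 and 2.66 at D3 (2.16, SE 0.29, adjusted p = 1.5e-05) and reached 5.83 and 5.85 in ESC. In libraries with enough reads, an estimated 6.5% to 16.0% of Pbx4 reads were on the protein-coding transcript Pbx4-004. Transcripts labelled nonsense-mediated decay or retained intron took much of the rest, such as Pbx4-009 with 16.2% and 24.0% in ESC. The Pbx4 level is thus mostly not RNA labelled as coding for the protein. Pbx2 was called in no comparison and ranged from 40.0 CPM in MEF to 69.2 CPM in ESC.

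Of the Pknox genes, whose proteins are also Pbx partners, Pknox1 was called nowhere, with 29.0 to 47.9 CPM in all 10 libraries. Pknox2 dipped and came back, at 22.3 and 20.2 CPM in MEF, 7.43 and 7.72 at D3, 17.1 and 18.2 at D6, 12.8 and 12.6 at D9, and 5.39 and 5.98 in ESC. The fall at D3 (-1.49, SE 0.08, adjusted p = 1.1e-09) and the rise at D6 (1.22, SE 0.09, adjusted p = 1.8e-08) were both called. The estimated transcript shares of Pknox2 moved as well: transcript Pknox2-002 took 93.9% and 86.8% of its reads in MEF and 18.1% and 27.5% in ESC, where Pknox2-001 took 77.2% and 71.3%. At D3 the replicates differed (64.3% and 0.0% for Pknox2-001), so that these estimates were unstable between libraries.

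**Figure D3:**
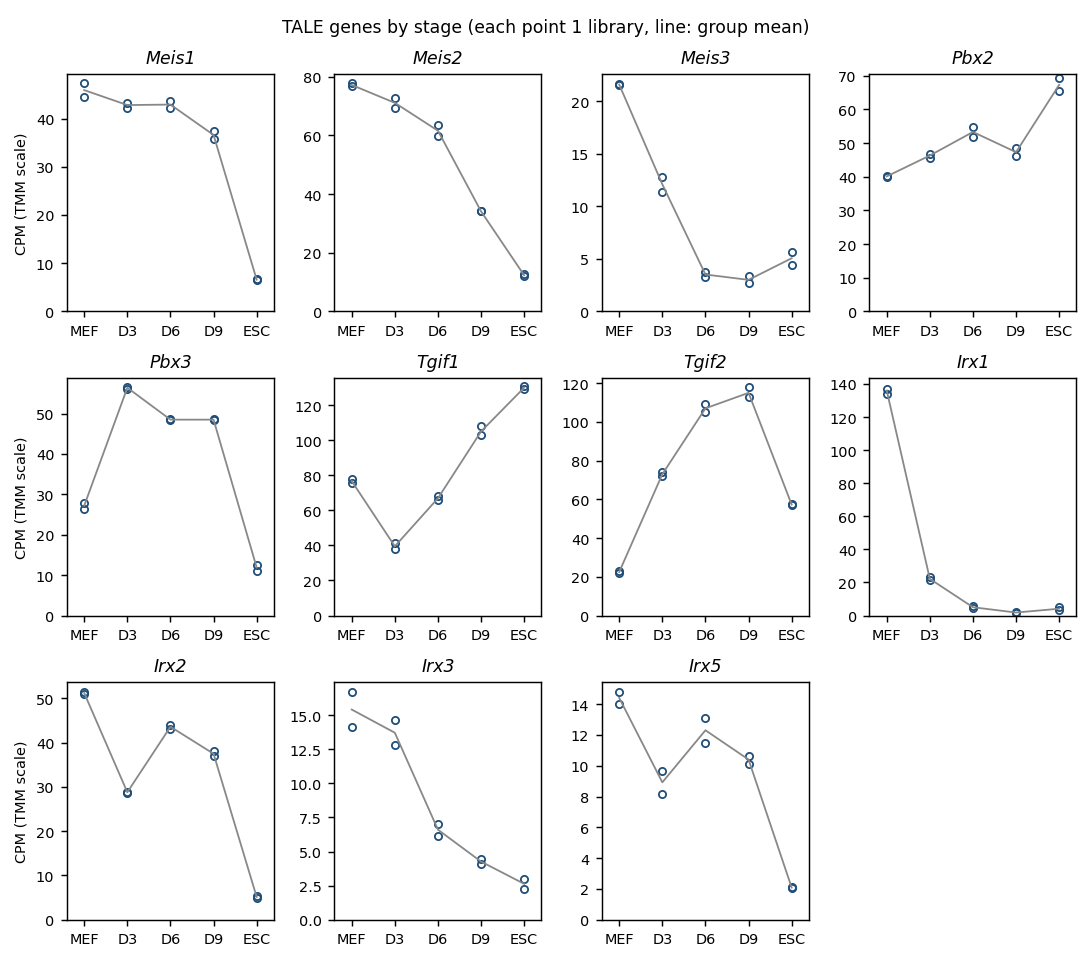
CPM of 11 TALE genes at the 5 stages, where each open circle is 1 library and the line joins the group means, with every vertical axis starting at 0. Meis1, Irx2 and Pbx3 have their lowest points in ESC, Irx1 drops at each induced stage, and Tgif2 goes up at D3 while Tgif1 dips.

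The Tgif genes, a pair of related repressors, differed in direction at the start. Tgif1 (ENSMUSG00000047407.15, chromosome 17, 70844205 to 70853546) read 75.5 and 77.8 CPM in MEF, 41.2 and 37.9 at D3, 68.1 and 65.7 at D6, 103 and 108 at D9, and 131 and 129 in ESC. The D3 libraries were the lowest of the 10, but no comparison reached the 2-fold minimum, the nearest being D3 against MEF at -0.95 (SE 0.05, adjusted p = 2.6e-10). Tgif2 (ENSMUSG00000062175.11, chromosome 2, 156840007 to 156855570) read 22 and 23 CPM in MEF, 72.1 and 73.9 at D3, 105 and 109 at D6, 113 and 118 at D9, and 57.4 and 57.1 in ESC. It rose at D3 (1.69, SE 0.05, adjusted p = 4e-13), and its fall from D9 to ESC lay at the threshold (-1.01, and -0.98 without D9 replicate 2). Per length, Tgif2 was above Tgif1 at D3 (21.6 and 18.2 TPM). At D6 the means were 32.2 ± 2.53 and 30.1 ± 1.18 TPM (SD, n = 2), too close to order. Tgif1 was above Tgif2 at D9 (45.6 and 34.3 TPM) and in ESC (63.6 and 18.7 TPM). In CPM, Tgif2 was still above Tgif1 at D9 (115 and 105), so the order there depends on the unit.

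The start-site windows of the Tgif genes are shown because Tgif1 has several start sites and its reads moved between them, whereas Tgif2 has 1. The windows, from RefSeq (GRCm38.p6), hold 250 bases before and 50 bases after the start, 5′ to 3′ along the gene, with capitals for matches to GGGNGNGG, the letters bound by Klf-type zinc fingers, on either strand and with overlaps merged. The first Tgif1 window (chr17:70853483-70853782, minus strand) has 7 matches, the second (chr17:70851161-70851460, minus strand) has 4 and the Tgif2 window (chr2:156839757-156840056, plus strand) has 5.
Tgif1, start of Tgif1-003: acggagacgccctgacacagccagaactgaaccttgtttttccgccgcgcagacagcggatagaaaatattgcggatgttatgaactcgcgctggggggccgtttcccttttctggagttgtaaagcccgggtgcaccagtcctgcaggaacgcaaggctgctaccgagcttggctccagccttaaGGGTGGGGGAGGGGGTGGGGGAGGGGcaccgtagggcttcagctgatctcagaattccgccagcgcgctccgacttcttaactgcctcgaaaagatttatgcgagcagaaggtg
Tgif1, start of Tgif1-001 and Tgif1-005: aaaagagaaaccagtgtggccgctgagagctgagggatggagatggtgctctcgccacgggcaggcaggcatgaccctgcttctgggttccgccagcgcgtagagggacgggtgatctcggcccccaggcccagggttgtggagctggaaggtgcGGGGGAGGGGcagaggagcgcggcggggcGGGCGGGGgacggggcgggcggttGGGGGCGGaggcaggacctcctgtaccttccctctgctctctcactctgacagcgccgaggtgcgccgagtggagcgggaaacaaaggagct
Tgif2, start of Tgif2-001 and Tgif2-002: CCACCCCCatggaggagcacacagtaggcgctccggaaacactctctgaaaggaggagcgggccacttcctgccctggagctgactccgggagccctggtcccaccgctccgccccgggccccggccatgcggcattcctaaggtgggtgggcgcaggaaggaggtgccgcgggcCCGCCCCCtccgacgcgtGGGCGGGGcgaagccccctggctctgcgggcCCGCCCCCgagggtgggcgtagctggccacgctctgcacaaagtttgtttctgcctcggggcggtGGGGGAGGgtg
The transcript that starts in the first window, Tgif1-003, took 18.3% and 20.9% of the Tgif1 reads in MEF, 41.8% and 34.2% at D3, 33.8% and 35.7% at D6, 37.2% and 36.0% at D9, and 41.2% and 41.3% in ESC. Transcripts that start in the second window took 19.7% and 29.5% in MEF, 4.9% and 9.4% at D3, and 10.5% and 15.2% in ESC. Both MEF libraries thus lay below all others for the first start and above all others for the second. Other starts of Tgif1 are not shown, among them that of Tgif1-004, whose window took 6.5% to 14.7% of the reads. Tgif1-011, from neither window shown, took 31.5% and 17.4% in MEF and 24.5% to 37.1% elsewhere, so that its estimates differed between replicates. Tgif2 kept 90.0% to 93.9% of its reads on transcripts from its 1 window in all 10 libraries. These shares are the estimates of the deposited tables from 50-base single reads and carry no test.

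Neighbouring Irx genes parted during the induction. Irx genes lie in a pair of groups, Irx1, Irx2 and Irx4 on chromosome 13 and Irx3, Irx5 and Irx6 on chromosome 8. Irx1 (ENSMUSG00000060969.8, chromosome 13, 71957921 to 71963723) read 137 and 134 CPM in MEF, 23.2 and 21.2 at D3, 4.29 and 5.78 at D6, 1.90 and 1.77 at D9, and 3.30 and 4.97 in ESC. It fell at each induced step, by 2.61 (SE 0.09, adjusted p = 3e-12), 2.14 and 1.46 on the log2 scale, and was 1.19 higher in ESC than at D9 (0.85 without ESC replicate 2, under the minimum). Irx2 (ENSMUSG00000001504.10, chromosome 13, 72628820 to 72634198), whose nearest edge is 665.1 kb from Irx1, kept most of its level with 51.4 and 50.9 CPM in MEF, 28.7 and 28.8 at D3, 44.0 and 43.2 at D6, 36.9 and 38.2 at D9, and 5.02 and 5.27 in ESC. No step of Irx2 before ESC reached 2-fold, and ESC against D9 was -2.87 (SE 0.06, adjusted p = 2.2e-14). D9 against MEF was -6.21 for Irx1 and -0.44 for Irx2.

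The pair on chromosome 8, 555.6 kb apart, differed less. Irx3 read 16.7 and 14.1 CPM in MEF, 14.6 and 12.8 at D3, 7.03 and 6.17 at D6, 4.43 and 4.09 at D9, and 2.24 and 3.02 in ESC. Its call at D6 against D3 (-1.06) was lost without D3 replicate 1 (-0.97) or without D6 replicate 2 (-0.98), while D9 against MEF held at -1.86. Irx5 read 14.0 and 14.8 CPM in MEF, 9.68 and 8.16 at D3, 13.1 and 11.5 at D6, 10.1 and 10.6 at D9, and 2.13 and 2.04 in ESC. It was called only in the comparisons with ESC (-2.31 against D9 and -2.78 against MEF). Its dip at D3 against MEF (-0.69, SE 0.10, adjusted p = 4.1e-05) was short of the 2-fold minimum. Like Irx2, it was held through D9 and was low in ESC. Of the 15 TALE genes at 5 CPM or more, 7 fell from D9 to ESC (Meis1, Meis2, Pbx3, Pknox2, Tgif2, Irx2, Irx5) and 1 rose (Irx1), beside 14.3% and 18.6% of all genes tested.

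The SINE genes, whose proteins act with Eya coactivators in muscle, kidney and sensory organs, also took different courses. Six4 (ENSMUSG00000034460.9, chromosome 12, 73099609 to 73113456) read 5.47 and 5.90 CPM in MEF, 3.97 and 4.18 at D3, 6.31 and 5.97 at D6, 10.6 and 11.3 at D9, and 26.2 and 26.4 in ESC, with a rise of 1.26 from D9 to ESC (SE 0.08, adjusted p = 2.6e-09). Six5 declined from 26.0 and 25.2 CPM in MEF to 14.3 and 14.3 at D9 and 6.51 and 6.46 in ESC, and was called for ESC against D9 (-1.14) and against MEF (-1.98).

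Of the LIM genes, Lhx6 and Lhx9 reached 5 CPM. Lhx6 (chromosome 2, 36081953 to 36105408), known from interneurons of the forebrain and from oral mesenchyme, read 0.332 and 0.215 CPM in MEF, 0.513 and 0.594 at D3, 7.32 and 7.52 at D6, 7.01 and 7.96 at D9, and 3.33 and 3.58 in ESC. It rose from D3 to D6 (3.75, SE 0.20, adjusted p = 1e-09), whereas the earlier call of 1.03 at D3 was lost without MEF replicate 2 (0.72), without D3 replicate 2 (0.93) and by DESeq2 (0.91). Lhx9 (chromosome 1, 138825186 to 138848577), known from the gonad and limb, went the other way. It read 7.59 and 7.16 CPM in MEF, 0.460 and 0.687 at D3, 0.0602 and 0.0605 at D6, 0.133 and 0.0253 at D9, and 1.09 and 0.551 in ESC, and fell at D3 by 3.70 (SE 0.35, adjusted p = 3.1e-07).

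Emx2, the one NK-like gene at 5 CPM or more, is known from the urogenital tract and the forebrain. It peaked at D3, with 19.7 and 20.7 CPM in MEF, 51.0 and 48.0 at D3, 13.5 and 12.1 at D6, 7.91 and 7.75 at D9, and 2.89 and 2.55 in ESC. The rise was 1.29 (SE 0.07, adjusted p = 3.4e-10) and the fall to D6 was -1.95 (SE 0.07, adjusted p = 1.1e-11). Its antisense partner Emx2os, which is not protein-coding, read 2.59 and 3.59 CPM in MEF, 7.09 and 5.87 at D3, and 1.15 and 1.61 at D6. The strand setting of the deposited counts is not given in the sources used here, so reads of the 2 genes may not be fully separated.

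Pax7 and Pax2 were nearly absent from MEF, D3 and ESC and were present in the sorted D6 and D9 cells. Pax7 (ENSMUSG00000028736.11, chromosome 4, 139737062 to 139833528), known from muscle stem cells and the neural crest, had 0 and 3 reads in MEF, 10 and 14 at D3, 1390 and 1219 at D6, 2412 and 3259 at D9, and 12 and 6 in ESC. In CPM the D6 libraries read 40.9 and 36.9 and the D9 libraries 77.5 and 82.3, with 0.414 or less in each of the other 6 libraries. D6 was above D3 by 6.83 (SE 0.17, adjusted p = 2.1e-13) and ESC against D9 was -8.29 (SE 0.16, adjusted p = 7e-15). With 3 reads in MEF, the D9 level was 1601-fold that of MEF, with a 95% counting interval of 547 to 7765 that covers counting error only. Against the same 3 reads, D3 was 6.75-fold (counting interval 2.05 to 35.0) and ESC 5.03-fold (1.47 to 26.7) the MEF level. Both calls were lost without a single library: D3 against MEF without MEF replicate 1 (adjusted p = 0.058), and ESC against MEF without MEF replicate 1 (adjusted p = 0.14) or ESC replicate 1 (adjusted p = 0.17). The D9 libraries lay above both D6 libraries, with a log2 fold change of 1.04 (SE 0.07, adjusted p = 6.9e-08) that was 0.97 without D6 replicate 2 and 0.99 without D9 replicate 2, just under the 2-fold minimum.

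Pax2 (ENSMUSG00000004231.13, chromosome 19, 44756045 to 44837871), known from the kidney, eye and midbrain-hindbrain boundary, read 0.222 and 0.457 CPM in MEF, 0.485 and 0.296 at D3, 15.9 and 16.0 at D6, 21.1 and 24.2 at D9, and 0.383 and 0.134 in ESC. Its 4 sorted libraries lay far above the other 6. D6 was 5.33 above D3 (SE 0.23, adjusted p = 7.5e-11), and ESC against D9 was -6.47 (SE 0.24, adjusted p = 7.9e-12). Because the D6 and D9 cells alone were sorted, time and the sort cannot be told apart in these steps. Markers of skeletal muscle, a tissue where Pax7 is known, were low in the same libraries: the 6 markers summed to 0.99 to 1.1 CPM at D6 and 1.25 to 1.28 at D9, each under 1 CPM, against 27.1 to 31.7 in MEF. The 8 neural markers summed to 12.6 to 13.3 CPM at D6 and 30.0 to 31.3 at D9, of which Sox1 averaged 7.28 and 12.9. They summed to 95.8 to 97.2 CPM in MEF, 1.16 to 1.29 at D3 and 146 to 148 in ESC, where Pax7 and Pax2 were nearly absent. Tubb3 was the highest of them in MEF (95.4 CPM) and in ESC (91.3). The part of neural markers in the Pax7 and Pax2 levels was not tested.

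The RefSeq windows of these 2 genes are shown because they were high in the same libraries, with capitals again for GGGNGNGG on either strand. The Pax7 window (chr4:139832919-139833218, minus strand) has 12 matches and the Pax2 window nearest to its main transcript (chr19:44756656-44756955, plus strand) has 3.
Pax7: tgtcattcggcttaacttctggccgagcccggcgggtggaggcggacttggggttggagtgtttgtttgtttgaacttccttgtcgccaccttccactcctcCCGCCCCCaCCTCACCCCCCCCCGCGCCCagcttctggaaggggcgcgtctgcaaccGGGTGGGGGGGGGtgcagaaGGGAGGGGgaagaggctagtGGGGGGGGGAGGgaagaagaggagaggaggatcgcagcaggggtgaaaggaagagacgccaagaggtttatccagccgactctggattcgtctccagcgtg
Pax2: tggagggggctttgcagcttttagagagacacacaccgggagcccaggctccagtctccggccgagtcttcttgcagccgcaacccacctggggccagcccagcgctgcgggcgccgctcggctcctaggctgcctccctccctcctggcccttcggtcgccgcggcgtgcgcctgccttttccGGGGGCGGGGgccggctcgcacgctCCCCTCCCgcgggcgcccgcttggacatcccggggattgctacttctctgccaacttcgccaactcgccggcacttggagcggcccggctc
These windows do not hold the start of the transcript with most reads. Pax7-001, with 96.1% to 98.6% of Pax7 reads at D6 and D9, starts 560 bases from the Pax7 start above, and Pax2-201, with 73.3% to 84.7% of Pax2 reads, starts 488 bases from the Pax2 start above.

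Over the set, 50 of the 77 genes matched the RefSeq table, with 65 windows. GGGNGNGG occurred on either strand in 76.9% of the 65 windows and in 49.5% of all 32851 windows of that length, whose median GC content was 61.0% and 52.7%. ATGCAAAT, the octamer known for Oct proteins, occurred in 0.00% and 1.74%, and TAATTA, a core of many homeodomain sites, in 6.15% and 5.29%. The genes differed in base composition from the rest, with a median of 19 CpG per window against 7, and a match describes letters, not binding.

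Pax1 and Pax6 peaked elsewhere. Pax1 (chromosome 2, 147361925 to 147393295), known from the sclerotome, read 3.64 and 2.79 CPM in MEF, 14.8 and 14.3 at D3, 1.55 and 1.41 at D6, 0.324 and 0.331 at D9, and 0.533 and 0.350 in ESC. It rose at D3 (2.18, SE 0.17, adjusted p = 3.8e-08) and fell at D6 (-3.28, SE 0.18, adjusted p = 1.6e-09), the same shape as Emx2. Pax6 (chromosome 2, 105668900 to 105697364), known from the eye and neural tube, read 0.305 to 0.830 CPM in the other 8 libraries and 7.86 and 8.31 in ESC, a difference from D9 of 3.40 (SE 0.23, adjusted p = 7.5e-09). The summed neural markers were also higher in these ESC libraries than in MEF. Without Tubb3, which averaged 95.4 CPM in MEF and 91.3 in ESC, the other 7 summed to 0.941 to 1.25 CPM in MEF and 55.4 to 56.2 in ESC. Of the 8 markers, 7 were tested, and 4 were higher and 2 lower in ESC than at D9, beside 18.6% and 14.3% of all genes. The lower ones were Dcx (7.74 CPM at D9 and 0.208 in ESC) and Neurog2 (2.92 and 0.0428). The part of neural markers in the Pax6 level was not tested. The call of Pax6 at D9 against MEF (1.04) was lost without MEF replicate 2 (0.77), without D9 replicate 2 (0.93), by DESeq2 (0.90) and with protein-coding transcripts only (0.06).

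**Figure D4:**
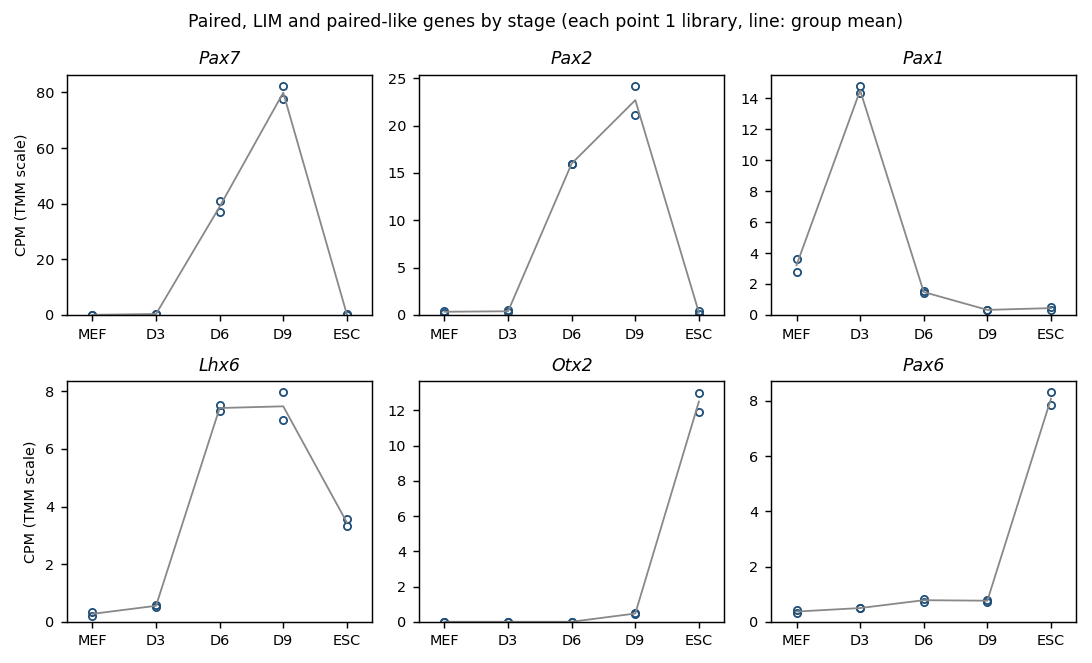
CPM of 6 paired, LIM and paired-like genes at the 5 stages, where each open circle is 1 library and the line joins the group means, with every vertical axis starting at 0. Pax7, Pax2 and Lhx6 are highest at D6 and D9, Pax1 at D3, and Otx2 and Pax6 in ESC.

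Among the paired-like genes, Alx4 and Pitx1 were highest in MEF and Otx2 in ESC. Alx4 (chromosome 2, 93642384 to 93681339), known from limb and skull mesenchyme, read 31.8 and 27.5 CPM in MEF, 11.4 and 10.7 at D3, 0.834 and 0.941 at D6, 0.653 and 0.504 at D9, and 3.23 and 3.43 in ESC. Its fall was called at D3 (-1.42) and at D6 (-3.65, SE 0.15, adjusted p = 5.9e-11). Pitx1, a hindlimb gene, read 17.8 and 16.5 CPM in MEF, 5.06 and 5.26 at D3, 3.00 and 2.78 at D6, 0.386 and 0.177 at D9, and 0.383 and 0.320 in ESC, and was not called for ESC against D9 (0.37, SE 0.38, adjusted p = 0.44), whereas Alx4 was higher there (2.55, SE 0.19, adjusted p = 2.8e-08).

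Otx2 (ENSMUSG00000021848.13, chromosome 14, 48657677 to 48673819), known from the anterior embryo and from pluripotent cells leaving the naive state, had no read in the 6 MEF, D3 and D6 libraries. It had 15 and 18 reads at D9 (0.482 and 0.455 CPM) and 404 and 487 in ESC (11.9 and 13.0 CPM). Against a floor of 3 reads over the group, D9 was at least 10.4-fold higher than D6, and ESC at least 249-fold higher than MEF. ESC was above D9 by 4.73 (SE 0.24, adjusted p = 1.1e-08).

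Because the ESC were grown on feeder cells, the ESC level of genes high in MEF was set beside 12 fibroblast markers. Those markers had 1.11% to 14.0% of their MEF level in ESC (median 9.09%) and 0% to 2.5% at D9 (median 0.102%), and summed to 49789 to 51276 CPM in MEF, 106 to 112 at D9 and 4444 to 4593 in ESC. Of the 22 homeobox genes at 5 CPM or more in MEF, Emx2 (13.5%), Alx4 (11.2%), Lhx9 (11.1%), Irx2 (10.1%), Irx1 (3.05%) and Pitx1 (2.05%) had ESC levels within the range of the markers, and Meis1 (14.3%) and Irx5 (14.5%) lay just above it. The part of fibroblast RNA in these ESC levels was not tested.

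**Figure D5:**
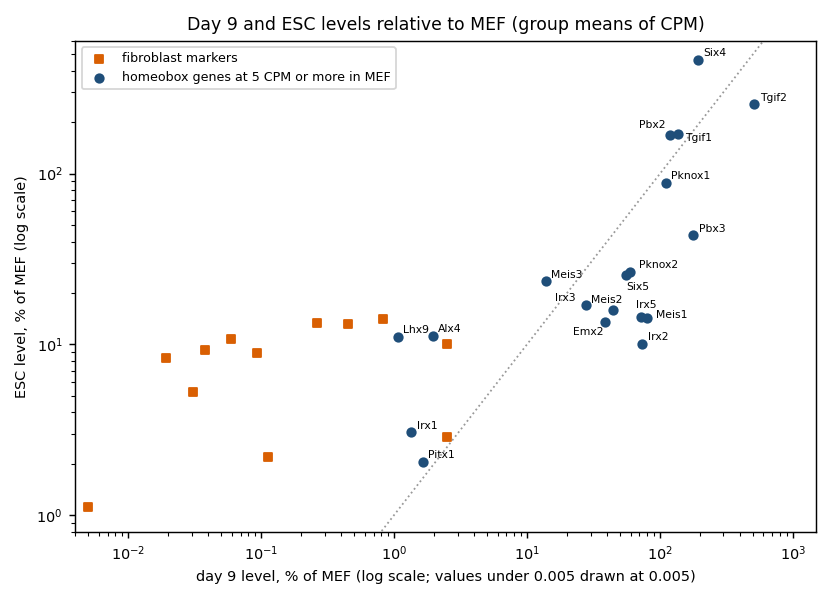
Group mean at D9 (horizontal) against group mean in ESC (vertical), each as a percentage of the MEF mean on log axes, for 19 of the 22 homeobox genes at 5 CPM or more in MEF (circles) and 12 fibroblast markers (squares), with a dotted line of equal level. Alx4, Lhx9, Irx1 and Pitx1 sit beside the markers, and Meis1, Irx2 and Irx5 sit right of the line.

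The other marker lists were read in the same libraries. The 10 pluripotency markers summed to 2.06 to 2.53 CPM in MEF, 474 to 477 at D9 and 4269 to 4357 in ESC, and all 10 were higher in ESC than at D9. The 8 epithelial markers summed to 1329 to 1386 CPM at D9 and 569 to 572 in ESC. The 6 markers of stratified epithelium summed to 73.9 to 74.0 and 42.2 to 47.1, of which Sfn had 44.4 and 43.3. Extraembryonic endoderm (7 markers) summed to 12.8 to 15.2 CPM at D9, trophoblast (6) to 57.0 to 59.6, macrophage (5) to 7.52 to 8.31 and endothelium (4) to 75.9 to 76.9. Single genes carried these D9 sums: Dab2 (12.2 CPM), Tfap2c (48.3), Cd68 (6.67) and Tek (68.3), with 1.67 to 1.92, 9.93 to 10.1, 1.13 to 1.36 and 7.96 to 8.19 CPM for the rest of each list. In ESC these 4 lists summed to 22.7 to 24.2, 43.2 to 46.8, 79.6 to 81.9 and 9.51 to 9.52 CPM.

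The 30 tested genes below 5 CPM peaked at group means of 0.319 to 4.83 CPM, and 28 of them were called at least once. Dlx2, a limb and craniofacial gene, read 4.84 and 4.82 CPM in MEF, 4.55 and 4.17 at D3 and 0.294 and 0.121 at D6, a fall of 4.36 on the log2 scale (SE 0.40, adjusted p = 3.7e-07). Six2, known from kidney progenitors, fell at the same step (-3.23, SE 0.31, adjusted p = 5.9e-07), and both were higher in ESC than at D9 (3.14 for Dlx2 and 3.12 for Six2). Their ESC levels were 10.8% and 14.9% of MEF, beside 1.11% to 14.0% for the fibroblast markers, of which 11 of 12 were also higher in ESC than at D9, and the part of fibroblast RNA was not tested. Pax9, a sclerotome gene like Pax1, also peaked at D3 with 3.33 and 3.15 CPM against 1.5 and 0.891 in MEF (1.45, SE 0.30, adjusted p = 0.0006). The Nkx6-3 and Nkx6-2 genes started from 0 reads in MEF: ESC was at least 65.1-fold higher for Nkx6-3 (3.39 and 3.15 CPM) and at least 40.8-fold for Nkx6-2 (1.74 and 2.32). Barx1 peaked at D9 with 1.67 and 2.58 CPM. Pax8 had its highest level in ESC, at 1.59 and 1.60 CPM, against 0.776 and 0.732 in MEF and 0.0321 and 0.0505 at D9. Of the 19 tested NK-like genes, 10 were higher and 3 lower in ESC than in MEF, beside 25.5% and 20.6% of all genes tested. Some of the 10, such as Nkx2-4 and Nkx2-5, passed the filter only through their ESC reads and had to differ. The counts therefore support no claim about the class.

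Proteins that act with LIM and SINE factors were read from a list of 16 genes, of which 14 were tested. In ESC against MEF, 1 was higher and 8 lower, 64.3% beside 46.1% of all genes, with a median log2 fold change of -1.64 beside 0.10. At D3 against MEF 1 was higher and 3 lower, 28.6% beside 29.1%, with a median of 0.09 beside 0.08. Of the later steps, D6 against D3 gave 3 lower (21.4% beside 19.5%), D9 against D6 gave 2 lower (14.3% beside 7.87%), ESC against D9 gave 4 higher and 5 lower (64.3% beside 32.9%), and D9 against MEF gave 2 higher and 5 lower (50.0% beside 43.9%). Ldb2, a LIM cofactor, fell with Lhx9 from a mean of 39.6 CPM in MEF to 2.35 at D3 and 0.12 at D6 (-4.08, adjusted p = 6.2e-12, and -4.25). Its paralogue Ldb1 stayed between 118 and 171 CPM and was not called. Lmo4, a LIM-only protein, was lower in ESC than at D9 (-1.25), Ssbp2 rose at D3 (1.55) and was then lower at D9 and in ESC, and Ssbp3 was lower in ESC (-1.40 against D9). Pbxip1, a protein that binds Pbx proteins, had a mean of 190 CPM in MEF, 82.4 at D3, 41.4 at D6, 32.6 at D9 and 48.3 in ESC. Its change for ESC against MEF was -1.97 (adjusted p = 7.8e-15).

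Of 103 other homeobox genes outside the Hox clusters, 102 were found and 76 tested. At D3 against MEF 18 were higher and 14 lower (42.1% beside 29.1% of all genes), at D6 against D3 21 and 15 (47.4% beside 19.5%), and at D9 against D6 13 and 12 (32.9% beside 7.87%). ESC against D9 gave 33 and 22 (72.4% beside 32.9%), ESC against MEF 37 and 21 (76.3% beside 46.1%) and D9 against MEF 29 and 18 (61.8% beside 43.9%). The median log2 fold changes ran from -0.12 at D9 against D6, beside 0.00 for all genes, to 1.15 for ESC against MEF, beside 0.10. Among those at 20 CPM or more, the 2 largest fitted rises and falls were Pou5f1 (6.31) and Pou6f1 (2.19) against Shox2 (-4.35) and Zeb2 (-2.90) at D3. From D3 to D6 they were Gsx1 (6.91) and Pou3f1 (5.11) against Prrx2 (-4.80) and Prrx1 (-2.43), and from D6 to D9 Rhox6 (3.20) and Hopx (2.08) against Prrx1 (-1.82) and Zeb1 (-1.49). Gsx1, a gene of the developing brain, shared the stages of Pax7 and Pax2: it was also lower in ESC than at D9 (-5.56), as was Pou6f1 (-3.63), while Nanog (2.90) and Pou5f1 (2.07) were the largest rises there. In ESC against MEF the largest were Nanog (8.85) and Pou5f1 (8.61) against Zfhx4 (-4.97) and Shox2 (-3.94). In D9 against MEF they were Rhox6 and Gsx1 against Shox2 and Prrx2 (-6.72). Rhox6 had no read in MEF and was at least 456-fold higher at D9, Gsx1 had 1 read in MEF and was 1237-fold higher (counting interval 222 to 48900), and Shox2 had 2 reads at D9 and was 1390-fold higher in MEF (385 to 11489).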

How the data were processed

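RNA was measured in 10 libraries of 5 groups, 2 each, and groups follow the titles. For every library there is a deposited table of 109617 transcripts, in which the authors give the estimated count and the TPM of each, per the file headers. Per the labels, libraries were made from poly(A) RNA with a stranded kit and read as single reads of 50 bases. Salmon 0.8.2 and mm10 are named in the submitters' processing notes, and the index, annotation release and strand setting are not given in the sources used here. Effective lengths were the same in all tables. The deposited TPM values are used for levels between genes.

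Estimated counts were summed over all transcripts of a gene, rounded and filtered (filterByExpr, minimum count 10, minimum total 15), which left 20165 genes. The 10 libraries entered 1 edgeR 4.0.16 fit in R 4.3.3, TMM-scaled and with a mean per group, and p-values were adjusted over all genes tested by Benjamini-Hochberg. Standard errors were derived from the fold change and its F statistic. The fit was tested on simulated data. Replicate pairs differed by more than sampling noise (chi-square per degree of freedom 2.91 to 5.42), which cannot show that they came from separate cultures. The common spread between replicates fitted by edgeR was a coefficient of variation of 3.75%. Each library counts once. Total reads per library and counting intervals are given with the results. Named genes are the members at 5 CPM or more in a group, and other lists are given by counts. Values of 4 members are not reported here, and these genes stay in all counts. Members and lists were chosen with earlier results of these data known. Coordinates are from GENCODE M21 (GRCm38), where all 77 genes were found.

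Alternatives were DESeq2 1.42.0, no filter, a filter of 1 CPM in 2 libraries, library-size scaling, no fold change minimum, limma 3.58.1 on log2(TPM + 1) and log2(TPM + 0.1), protein-coding transcripts only, the replicate number as a block, and each replicate left out in turn. DESeq2 and limma served only as alternatives, and figures were drawn with matplotlib 3.10.9.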

Additional observations from a re-analysis of the deposited data

How the results depend on the processing

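The 29 named genes gave 95 called changes. No direction reversed in any refit of these changes, also when 1 replicate was left out. Of the 95, 91 stayed called with DESeq2, 90 with library-size scaling, 93 with protein-coding transcripts only, 85 with limma on log2(TPM + 0.1) and 63 with limma on log2(TPM + 1). The setting without a fold change minimum reused the main fit, so its 95 calls were fixed in advance. The counts of tested homeobox genes moved more. The limma counts on log2(TPM + 1), higher and lower, were 4 and 4 at D3 against MEF, 3 and 6 at D6 against D3, 0 and 1 at D9 against D6, 5 and 8 for ESC against D9, 5 and 14 for ESC against MEF, and 5 and 13 for D9 against MEF. With log2(TPM + 0.1) the higher counts were 6, 7 and 4 for the first 3 comparisons and 12 for D9 against MEF, and the lower count at D9 against D6 was 5. The pseudocounts compress low genes by construction. DESeq2 called 4 higher at D9 against D6, and leaving out 1 replicate gave 2 to 6 there. Without the fold change minimum 16 were lower at D3 against MEF, 20 higher at D6 against D3 and 18 lower at D9 against D6. The stricter filter, with fewer genes tested, left 13 higher for ESC against MEF. Library-size scaling moved the median change over all tested genes (log2) from 0.08 to 0.285 at D3 against MEF, from 0.099 to 0.438 for ESC against MEF and from 0.193 to 0.482 for D9 against MEF.

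Replicate numbers are shared between groups, but nothing in the labels says that equal numbers share an origin, and same-numbered libraries did not deviate together (mean correlation 9.9e-05, from -0.02 to 0.022 over 10 pairs). With a replicate block the counts higher and lower were 10 and 8 at D3 against MEF, 12 and 16 at D6 against D3, 7 and 8 at D9 against D6, 19 and 17 for ESC against D9, 22 and 24 for ESC against MEF and 19 and 21 for D9 against MEF, and all 95 named changes stayed called.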

Other observations

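The same symbol stems also matched 14 gene IDs without a protein-coding transcript, which belong to none of the counts above. Emx2os was the highest of them, at a group mean of 6.48 CPM at D3. Otx2os1 had reads in ESC only, at 0.369 and 0.205 CPM, as Otx2 was highest there. Irx3os read 0.888 and 0.681 CPM at D3 and 0.0884 and 0.134 in ESC. The pseudogene Tgif2-ps2 varied between replicates, from 3.27 to 0.000473 CPM at D6, and reads may be split between it and Tgif2, which read 105 and 109 CPM in those libraries.

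Close neighbours among the homeobox genes did not always share a course. Pax9 and Nkx2-9 lie 78.5 kb apart on chromosome 12. Pax9 fell from D6 to D9 (log2 fold change -1.63, adjusted p = 0.004 by edgeR), from 0.954 and 0.819 CPM to 0.269 and 0.305 CPM. Nkx2-9 rose (1.5, adjusted p = 0.0093 by edgeR), from 0.391 and 0.825 CPM to 1.60 and 1.78 CPM. At D6 Nkx2-9 had only 13.3 and 27.3 reads, and its replicates differed. The Dlx pairs, 9.2 to 15.2 kb apart, were below 5 CPM throughout.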
